A study of Mus musculus with 16 samples.

Results

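The suckling-type Lct and Cubn enterocytes were the 250 cells with the highest share of transcripts from 8 genes of the milk-fed gut: Lct, Cubn, Mgat4c, Vnn1, Slc7a15, Lect2, Slc2a2 and Mep1b. They were chosen among the 1961 cells with at least 900 UMIs (unique molecular identifiers, each counting 1 captured transcript), out of 2597 cells in all. The score of a cell was the summed UMIs of the 8 genes divided by all UMIs of that cell. Cells came from small-intestinal crypt isolates of untreated outbred mice at postnatal day 16, either wild type (WT) or ROBO Crainbow (ROBO), with 8 labelled samples per genotype. By the study's methods, ROBO mice carried a Crainbow transgene and Villin-Cre, which acts in the intestinal epithelium from its development onward. After recombination a ROBO cell expresses RSPO3 or 1 of its fusions with PTPRK, PTPRK(e1):RSPO3(e2–5) or PTPRK(e1–7):RSPO3(e2–5), each with its own fluorescent protein, while cells without recombination express an inert Mars1 reporter. The ROBO epithelium is therefore a mosaic, and the number of mice pooled is not given in the sources used here. Cell names gave the genotype and a running number alone, so each genotype was 1 pooled sample: nothing was tested between genotypes, and all intervals are 95% intervals for counting error only.

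In suckling mammals the villus enterocyte is built for milk. Lactase splits milk sugar, fat is repacked into chylomicrons, and whole proteins are taken up by endocytosis and either broken down in lysosomes or, as with maternal antibody, carried across the cell by the neonatal Fc receptor. Around weaning, lactase gives way to sucrase-isomaltase and the uptake of whole proteins closes. Postnatal day 16 lies shortly before that switch in mice.

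Lct and Sis encode the disaccharidases of milk and of solid food, and Cubn encodes cubilin, a receptor for the uptake of whole proteins. In GENCODE M21 (GRCm38) all 3 are protein-coding genes on the minus strand, with Lct at chr1:128284756-128328318, Cubn at chr2:13276338-13491813 and Sis at chr3:72888557-72967863. Their promoters are shown because Lct and Cubn define these cells and Sis is the gene that follows lactase. Each window runs from 250 bases before to 50 bases after the start site in RefSeq (GRCm38.p6), at chr1:128328269-128328568, chr2:13491827-13492126 and chr3:72967814-72968113. Capitals mark TTTAT (the core letters of a CDX-type motif), GATAA (GATA-type) and GTTAAT (an HNF1 half-site), searched on both strands.
Lct: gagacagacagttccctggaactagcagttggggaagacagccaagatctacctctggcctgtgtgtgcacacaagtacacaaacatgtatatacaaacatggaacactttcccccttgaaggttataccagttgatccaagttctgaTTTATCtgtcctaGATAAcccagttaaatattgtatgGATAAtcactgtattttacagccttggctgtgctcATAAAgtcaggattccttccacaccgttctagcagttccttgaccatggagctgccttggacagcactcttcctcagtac
Cubn: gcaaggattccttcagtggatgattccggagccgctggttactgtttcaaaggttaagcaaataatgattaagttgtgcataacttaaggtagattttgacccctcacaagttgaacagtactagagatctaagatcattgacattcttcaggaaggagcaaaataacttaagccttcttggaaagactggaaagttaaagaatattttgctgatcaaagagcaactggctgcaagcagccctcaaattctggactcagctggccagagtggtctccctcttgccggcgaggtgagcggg
Sis: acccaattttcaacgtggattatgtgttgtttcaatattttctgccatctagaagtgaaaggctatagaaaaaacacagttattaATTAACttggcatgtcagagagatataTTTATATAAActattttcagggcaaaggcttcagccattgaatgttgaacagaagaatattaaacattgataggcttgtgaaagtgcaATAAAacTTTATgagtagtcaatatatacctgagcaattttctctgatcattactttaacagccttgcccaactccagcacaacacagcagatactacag
The Lct window held 2 CDX-type and 3 GATA-type matches, of which the pair beginning 102 and 101 bases before the start site share letters. The Sis window held 4 CDX-type matches and 1 HNF1 half-site, and the Cubn window held none of these letters. These are short motifs: of 32851 promoter windows of this length, 40.0% held TTTAT, 25.4% held GATAA and 7.10% held GTTAAT on either strand. A match is a string of letters and not a measured binding site.

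The rule fixed the level of the 8 genes, which are given as a description. Scores of the members ran from 0.632% to 2.36% of a cell's UMIs. The last 3 cells inside held 16 of 2529, 24 of 3796 and 6 of 950 UMIs, and the first 3 outside held 18 of 2852, 15 of 2378 and 20 of 3188 (0.631%, 0.631% and 0.627%). The score had no gap at that point, so the members are the upper end of a continuous range. Lct gave 60.5% of the members' UMIs of the 8 genes, Lect2 11.7%, Cubn 11.1%, Mep1b 6.66%, Slc7a15 3.69%, Slc2a2 3.51%, Vnn1 1.65% and Mgat4c 1.14%. All 250 members had an Lct UMI, with a median of 11 per cell, whereas 192 members had a Cubn UMI, with a median of 2. Most members carried several of the genes, 61 with 4 and 61 with 5 detected, while 3 cells had 1 and 4 cells had all 8.

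**Figure D1:**
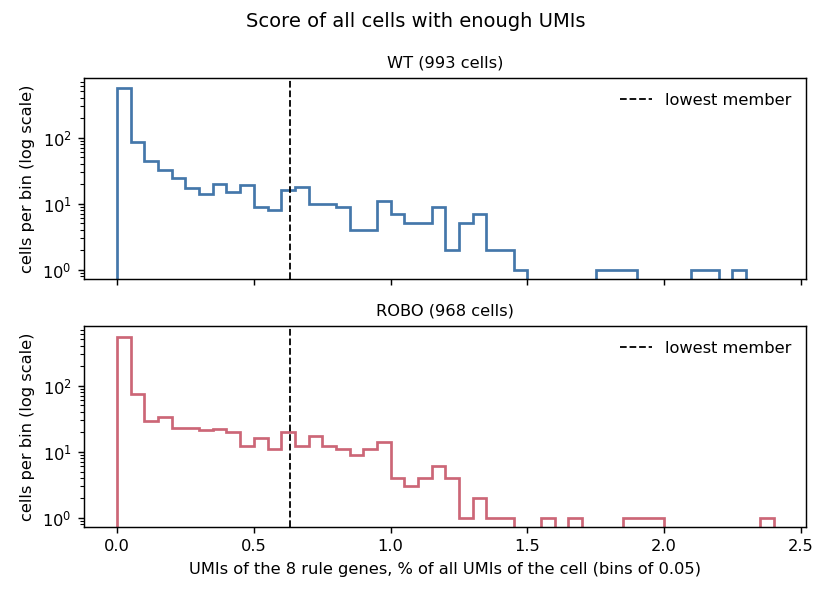
Number of cells (log axis) by score, the UMIs of the 8 genes as a percent of a cell's UMIs in bins of 0.05, for 993 WT cells above and 968 ROBO cells below; the dashed line marks the lowest member (0.632%). In both genotypes most cells lie near 0 and a long tail crosses the line without a gap.

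Members were as frequent in both genotypes within counting error. They were 124 of 993 WT cells (12.5%, exact Clopper-Pearson interval 10.5% to 14.7%) and 126 of 968 ROBO cells (13.02%, 10.96% to 15.3%). The difference was 0.529 percentage points, with a Newcombe interval of -2.43 to 3.49. These are shares of cells captured from crypt isolates and not of cells in the tissue. By RNA FISH, which stains transcripts in tissue sections, the study reports a marked drop in enterocytes positive for Alpi in ROBO intestine. In its single-cell data it reports no significant change in the fraction of each cell type. The members held 528710 UMIs, 905 to 13756 per cell, with medians of 1826 in WT and 1740.5 in ROBO. Over all 2597 cells the range was 463 to 13756 UMIs, with medians of 1492 in WT and 1610 in ROBO. No cell had the same counts as another cell.

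The name was checked against genes that the score did not use. Defining markers of other cell types were at or near 0 in the members: the 3 tuft genes had 0 UMIs, the 7 immune genes 5, the 4 fibroblast genes 1, the 6 enteroendocrine genes 7 and the 8 goblet genes 60. The 8 stem cell genes had 153 UMIs (2.89 per 10000 UMIs, against 13.4 in the 1711 other cells), of which Axin2 gave most, and the 8 dividing-cell genes 53 (1.00 against 9.06). The 6 Paneth genes had 169 (3.20 against 21.3). Lgr5, which marks crypt stem cells, was at 0.0757 per 10000 against 0.704. Although the tissue was labelled as crypts, these cells thus had little of the crypt's own markers and much of those of villus enterocytes, such as Alpi (intestinal alkaline phosphatase) at 18.4 per 10000 against 5.76. Cytosolic ribosomal protein genes took 6.45% of the members' UMIs (6.66% in WT, 6.25% in ROBO) and 14.5% of those of other cells, and the part of this difference in the values below was not tested. A UMI can also come from free RNA in a droplet. In 27 immune cells (median 2124 UMIs), which should lack Lct, Apoa4 and Cubn, these were at 0.762 and 3.35 per 10000 and 0 UMIs. Fcgrt was at 0.762 and Gpx3 at 0 UMIs in those cells. Members were left out of the immune cells, which may have lowered Lct and Cubn there.

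The levels that follow are UMIs per 10000 UMIs of a set of cells, compared with those of the 1711 other cells with at least 900 UMIs. Because the cells were chosen by their own transcripts, all these values describe them and none is a test. Of 8825 genes outside the rule with at least 50 UMIs in both sets together, 9.08% were at least 2-fold higher in the members and 30.5% at least 2-fold lower, with a median log2 ratio of -0.42. Other scalings moved that median by 0.25 upward (trimmed mean of M values, TMM) or 0.13 downward (without ribosomal protein genes), and the counts of 801 higher and 2692 lower genes became 1149 and 2089 or 669 and 3025.

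Receptors and adaptors of protein uptake were several-fold higher in the members. Of 10 genes in the list, 7 outside the rule passed the minimum of UMIs; 4 of them were at least 2-fold higher, 2 lower, and the median log2 ratio was 1.90. Fcgrt, the neonatal Fc receptor that carries maternal antibody, was at 68.1 in WT members and 76.3 in ROBO members, against 8.86 in other cells (8.15-fold, log2 interval 2.96 to 3.09). Both genotypes thus stood far above the other cells, and after thinning to 900 UMIs per cell 90.8% of members had an Fcgrt UMI, against 24.0% of other cells and 7.41% of immune cells (2 of 27). Amn, the membrane anchor of cubilin, was at 5.50 in WT members and 4.94 in ROBO members, against 1.40. Dab2, the clathrin adaptor that binds such receptors, was at 3.92 and 4.22, against 0.503. Pdzk1, a scaffold under the brush border, was at 3.28 and 3.46, against 0.329. Gipc1, which is also an adaptor, was among the lower genes (0.322 against 0.818). Lrp2, the usual partner of cubilin in kidney, had 1 UMI in all cells, and Mcoln3, an endosomal channel of the neonatal gut, had 4. Mamdc4, which encodes endotubin of the apical endosome, was at 9.19 in WT members and 12.5 in ROBO members, against 1.07.

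Lysosomal genes followed. All 21 listed genes passed, 15 were at least 2-fold higher and 0 lower, with a median log2 ratio of 1.29. Ctsl (cathepsin L) had the largest ratio, 6.24 against 0.953, followed by Neu1 (neuraminidase, 5.43 against 1.07) and Lipa (lysosomal acid lipase, 1.44 against 0.298). The Ctsl excess lay in the 106 members that were also villus-top cells (defined below), at 13.7, while the other 144 were at 0.908. Many Ctsl UMIs also came from the ROBO cell described below. Psap, the precursor of the saposins, was at 1.53 against 1.62, and Cd63, Ctsd, Ctsh, Gaa and Npc2 were also within 2-fold.

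Genes of fat absorption were higher as a group. Of 21 genes 20 were listed and 19 passed, 16 at least 2-fold higher and 0 lower, with a median log2 ratio of 2.03. Apoa4, an apolipoprotein of chylomicrons, was at 560 in WT members and 618 in ROBO members, against 113. Apoa1 was at 222 and 280, against 46.3. Fabp2, the intestinal fatty acid binding protein, was at 78.6 and 87.1, against 18.6. Dgat2 and Mogat2, enzymes of triglyceride synthesis, were 6.72-fold and 4.66-fold higher. The apolipoprotein gene Apoc2 had 1 UMI in all cells.

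Sugar handling was marked by gluconeogenic genes. All 7 genes passed, 6 were at least 2-fold higher and 1 lower, with a median of 1.39. Pck1, the cytosolic enzyme that commits carbon to glucose synthesis, was at 16.9 in WT members and 18.6 in ROBO members, against 1.98. G6pc, which releases free glucose, was at 1.32 against 0.181. Pck2, the mitochondrial counterpart of Pck1, was the lower gene, with 3 UMIs in members (0.0567 against 0.697). Fatty acid oxidation and ketogenesis genes were closer to the other cells, 3 of 17 being at least 2-fold higher and 0 lower (median 0.54).

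Brush-border enzymes and transporters were higher in turn. Of 14 peptidase and phosphatase genes, 11 outside the rule passed and 10 were at least 2-fold higher, with 0 lower and a median of 2.21. Ace, angiotensin-converting enzyme, had the largest ratio of any gene outside the rule with at least 100 UMIs in members. It was at 15.1 in WT members and 11.8 in ROBO members, against 1.00 (13.4-fold, log2 interval 3.57 to 3.93). Anpep (aminopeptidase N) was at 2.29 against 1.65 and did not reach 2-fold. Of 14 transporter genes, 11 outside the rule passed, 10 higher and 1 lower, with a median of 1.67. Slc15a1, the peptide transporter, was 5.91-fold and Slc5a1, the sodium-glucose cotransporter, 3.12-fold higher, whereas Slc1a1, a glutamate transporter, had 0 UMIs in the members and 99 in other cells. Of 11 microvillus genes 10 passed, 8 of them at least 2-fold higher and 0 lower (median 1.31). Cdhr2 and Cdhr5, the protocadherins that link microvilli, were 4.69-fold higher in the case of Cdhr2 and at 20.7 against 4.48 in that of Cdhr5.

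Transcription factors of the enterocyte were mostly at the level of other cells. All 17 passed, 4 were at least 2-fold higher and 1 lower. Their median was 0.06, and it was -0.07 without ribosomal protein genes in the totals. Among the higher ones were Prdm1 (4.64-fold), Maf (3.90-fold) and Klf4 (2.13-fold). Prdm1 encodes BLIMP1, a repressor known from the suckling epithelium, and was at 0.979 in WT members and 0.9499 in ROBO members, against 0.208. Vdr, the vitamin D receptor, was the lower one (0.832 against 2.66). Hnf4a, Cdx2 and Gata4, which set the identity of the intestine and its parts, were within 2-fold, at 3.88 against 5.40, 0.549 against 0.566 and 0.567 against 0.716. Of the glucocorticoid response genes 6 of 7 passed, with 1 higher and 1 lower and a median of -0.30. Sgk1, a hormone-induced kinase, was at 9.44 against 1.48, Nr3c1, the glucocorticoid receptor, at 1.21 against 1.65, and Hsd11b2, the enzyme that inactivates glucocorticoids, had 0 UMIs in members and 107 in other cells.

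Lists of weaning, detoxification and villus-bottom genes are read against the 30.5% of all genes that were at least 2-fold lower and the median of -0.42. Of 6 weaning-associated genes, 1 was at least 2-fold higher and 2 lower (median -0.83), a share of lower genes near that of all genes. Sis itself was near the level of the other cells, at 2.71 in WT members and 2.36 in ROBO members, against 2.27 (log2 interval -0.11 to 0.42). Its 134 UMIs in members came from 18 cells. Of the disaccharidases besides Lct, 1 of 3 was at least 2-fold higher and 0 lower (median 0.16). Pigr, the receptor that exports IgA, was at 6.17 against 15.2. Of 12 xenobiotic enzymes 10 passed, 2 higher and 6 lower (median -1.37), the higher ones being Cyp3a25 (2.19 against 0.421) and Cyp3a13 (3.27 against 1.17). Summed over the 12 genes the level was nevertheless higher in members, at 15.5 against 11.4 (log2 interval 0.33 to 0.55). Of 10 villus-bottom genes, 6 were lower and 2 higher (median -2.02). Dmbt1, a mucosal defence glycoprotein, was at 0.567 against 25.1, while Il18 and Reg3b were 3.37-fold and 2.43-fold higher. Reads of Gsdmc2, Gsdmc3 and Gsdmc4, near-identical copies, may have been split in counting. In the arginine and urea cycle list 8 of 11 genes passed, 0 higher and 1 lower (median 0.12, and -0.01 without ribosomal protein genes in the totals). Cps1, which makes carbamoyl phosphate, was the lower one (4.37 against 15.4), Oat was at 38.9 against 38.0, and Ass1 was listed at 0 in all cells.

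The methods describe a crypt preparation that starts from the proximal part of the small intestine. Of the ileal genes, Fabp6 had 2 UMIs and Slc10a2 had 0 in all cells, while Slc51a and Slc51b, the basolateral bile acid exporter, were 4.24-fold and 4.37-fold higher in the members. In all, 3 of the 4 ileal genes that passed were at least 2-fold higher and 0 lower. Of 3 proximal genes 1 was higher (Cybrd1, an iron reductase, 0.889 against 0.227) and 0 lower. Of 6 villus-top genes 4 were higher and 2 lower (median 1.62), and of 7 immediate-early genes, which respond to stress in preparation, 0 were past 2-fold (median 0.21).

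**Figure D2:**
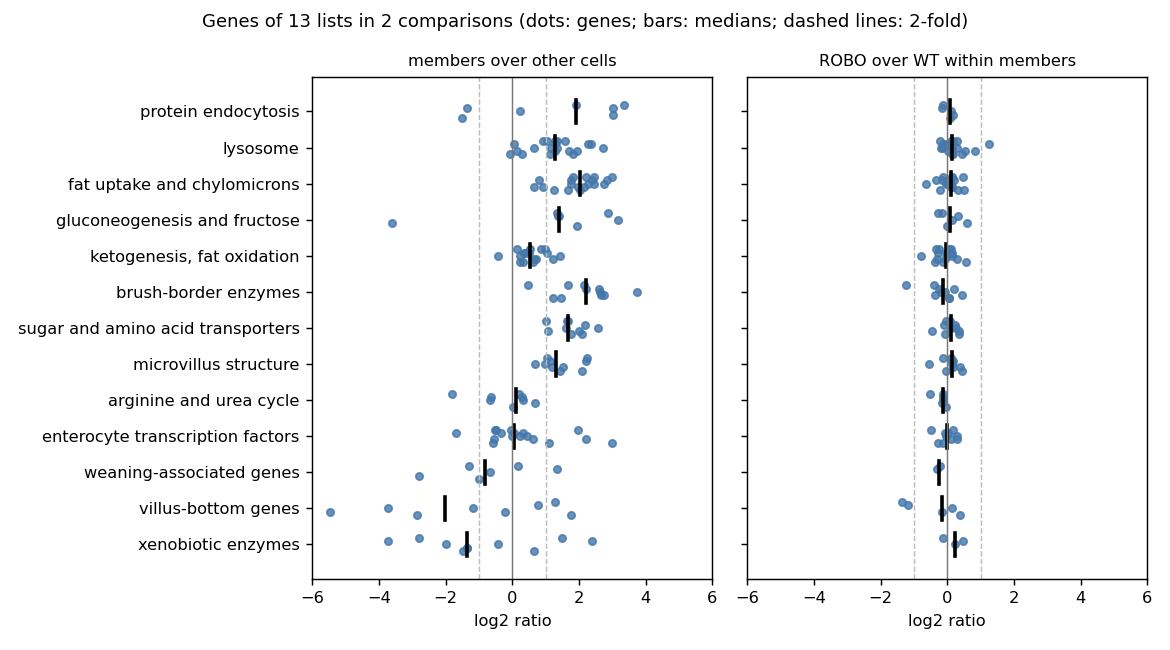
Log2 ratio of each gene with enough UMIs in 13 lists (dots) with the list's median (black bar), for the members over other cells on the left and for ROBO over WT within the members on the right; dashed lines mark 2-fold. On the left 8 lists have medians at or above 0.54, up to 2.21 for brush-border enzymes, while on the right list medians lie between -0.26 and 0.23.

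The most like cells were compared directly. Weaning-type cells were 163 of the 250 cells highest in Sis, Gsta1 and Aldh1a1, and villus-top cells 135 of the 250 highest in Mfi2, Gpx3 and Ada. Villus-bottom cells were 185 of the 250 highest in Gsdmc4, Dmbt1, Gsdmc2 and Reg1. Members and cells in more than 1 group were left out. Cells high in the genes that chose 1 group were thus taken out of the others, which lowered those genes there and may have lowered others. The members overlapped these groups unequally. Among the 250 villus-top cells were 106 members (42.4%), among the 250 weaning-type cells 18 (7.20%) and among the 250 villus-bottom cells 0. For comparison, each group was 250 of the 1961 cells with at least 900 UMIs. The share of members in the villus-top group was above that share of all cells, and those in the weaning-type and villus-bottom groups were below it. Some compared cells carried at least 10 UMIs of goblet, Paneth, enteroendocrine, immune or fibroblast markers. Without them 147, 128 and 171 cells remained.

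Against the weaning-type cells, 10.2% of 3605 genes were at least 2-fold higher in the members and 11.2% lower (366 and 404, or 461 and 284 with TMM, which moved the median by 0.17). The protein uptake genes set these cells apart: 4 of 4 that passed were higher (median 3.50). Fcgrt was at 72.2 against 4.09 (17.6-fold), Pdzk1 at 3.37 against 0.465, and Dab2, with 215 UMIs in members, had 0 in weaning-type cells, which makes it at least 58.3-fold higher against a floor of 3 UMIs over the group. Cells shared with the villus-top group had been left out of the weaning-type cells but kept among the members. In the 144 members outside the villus-top cells Fcgrt was at 41.2, Pdzk1 at 2.69 and Dab2 at 2.79. The part of the filter in these ratios was not tested. Of the lysosome list 10 of 20 were higher and 0 lower (median 1.12). In the other direction, Mgam, maltase-glucoamylase, was at 4.37 against 11.3, Arg2, an arginase, at 0.889 against 4.91, and Pigr at 6.17 against 18.4. All 3 weaning-associated genes that passed were lower, and so were 5 of 7 xenobiotic enzymes (0 higher), among them Gstm3 (0.322 against 2.79) and Ces2a (0.378 against 3.54). Among the general enterocyte lists, 6 of 19 fat genes were higher and 0 lower (median 0.34), 4 of 9 brush-border genes were higher and 1 lower (0.68), 3 of 10 microvillus genes were higher and 0 lower (0.57), and 2 of 9 transporters were higher and 0 lower (0.31). The gluconeogenesis list was shared, with 2 of 6 higher, 0 lower (0.30) and a sum of 67.2 against 63.2. Fatty acid oxidation and ketogenesis had 0 of 17 higher and 1 lower (-0.49). The arginine and urea cycle list had 0 of 8 higher and 2 lower (-0.22). Mttp, which loads fat onto apolipoprotein B, was at 17.0 against 16.8 (log2 interval -0.13 to 0.16), and Slc5a1 at 8.72 against 9.56. Fabp1 was lower in members (42.6 against 67.0), and Apoa4 higher (589 against 128). Prdm1 had 51 UMIs in members and 1 in weaning-type cells, a ratio of 41.5 with a log2 interval of 2.83 to 10.71. Prdm1 met the minimum of 50 UMIs over both sets through the members alone. The size of its ratio rests on that 1 UMI. The other genes with the largest ratios upward were Mfi2, Gpx3, Npl and Renbp. Mfi2 and Gpx3 had been lowered in weaning-type cells by leaving out cells shared with the villus-top group. Downward the genes with the largest ratios were Mptx1, Gip, Chgb, Dcn and Tff3. Apart from Mptx1 these are markers of enteroendocrine cells, fibroblasts and goblet cells.

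Against the villus-top cells, 9.26% of 2753 genes were at least 2-fold higher and 2.29% lower (255 and 63, or 189 and 75 with TMM, which lowered the median by 0.10). Here 0 of 4 protein uptake genes were past 2-fold: Fcgrt was at 72.2 against 99.9, Dab2 at 4.07 against 6.42, Amn at 5.22 against 5.86 and Pdzk1 at 3.37 against 2.87. In the fat list 5 of 18 genes were higher and 3 lower (median 0.31). The lower ones were the secreted apolipoproteins, Apoa4 at 589 against 1338, Apoa1 at 251 against 519 and Apoc3 at 59.2 against 128. Genes of fat uptake and resynthesis went the other way, with Mogat2 at 8.32 against 2.14, Mttp at 17.0 against 7.27 and Fabp1 at 42.6 against 21.002. So did Khk (fructokinase, 5.98 against 1.28), Slc37a4 (the glucose-6-phosphate transporter, 2.76 against 0.642) and Slc5a1 (8.72 against 2.65). Sis, with 134 UMIs in members, had 1 UMI in villus-top cells (2.53 against 0.0428). Cells also among the 250 highest in Sis, Gsta1 and Aldh1a1 had been left out of the villus-top set, while the 18 such members were kept. The Sis ratio thus follows in part from the filter. Anpep, Reg3b, Sfxn1 and Enpep had the next largest ratios upward (5.00-fold to 5.35-fold). In the lysosome list 1 of 19 genes was higher and 1 lower (median 0.23). Nt5e and Slc28a2, which handle nucleosides, were lower in members, at 0.0757 against 4.23 and 2.21 against 7.49. Gip, Zg16 and Muc2, which mark enteroendocrine and goblet cells, were also lower.

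Against the villus-bottom cells, 16.7% of 4130 genes were higher and 26.3% lower (688 and 1088, or 1014 and 642 with TMM, which moved the median by 0.44). Of the fat genes 16 of 18 were higher and 0 lower (median 3.32), with Apoa1 at 251 against 1.23 and Apoa4 at 589 against 6.37. Of the protein uptake genes 4 of 5 were higher and 1 lower (median 5.24). All 10 microvillus genes that passed were higher, Cdhr5 at 20.7 against 1.60. Ace was at 13.5 against 0.0416 (2 UMIs), and Pck1 at 17.7 against 0.229. Dab2 had 0 UMIs in villus-bottom cells, which makes it at least 65.1-fold higher against a floor of 3 UMIs over the group. Mfi2 and Gpx3 also had 0 UMIs in villus-bottom cells, but cells shared with the villus-top group had been left out. The filter thus lowered these genes there, and their ratios are not read. It may also have lowered Dab2, which was at 2.79 in the 144 members outside the villus-top cells. Gm2061 and Ifit1bl2 likewise had 0 UMIs in villus-bottom cells. Cps1 (4.37 against 24.5), Otc (1.23 against 3.16) and Pigr (6.17 against 25.4) were lower in the members. Smoc2, Ccna2 and Dut, genes of stem and dividing cells, and Kcne3, a potassium channel subunit, were lower with 2 to 3 UMIs in members.

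**Figure D3:**
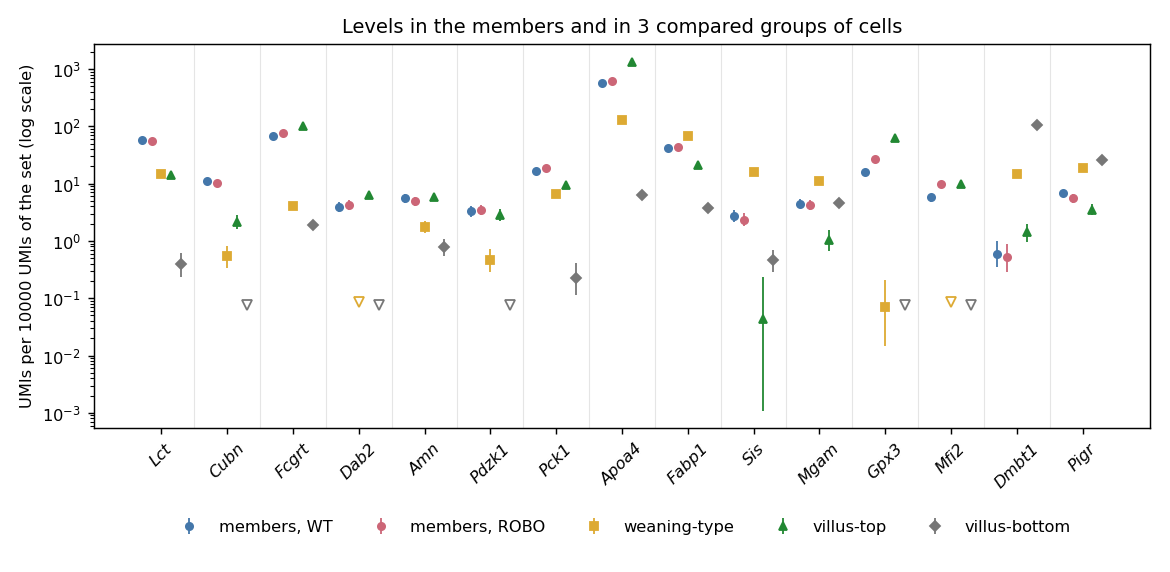
UMIs per 10000 UMIs (log axis) of 15 genes in WT and ROBO members and in the 3 compared groups; bars are exact Poisson 95% intervals and open triangles mark the upper bound where a set had 0 UMIs. WT and ROBO members lie within 2-fold of each other for all 15 genes, Fcgrt, Dab2, Amn and Pdzk1 lie within 2-fold of each other in members and villus-top cells, and Sis is highest in weaning-type cells (15.7) and lowest in villus-top cells (0.0428). Sis helped to choose the weaning-type cells, and cells shared with that group were left out of the villus-top set, so the rule favoured this order. The same holds for Gpx3, Mfi2 and Dmbt1 in the groups they helped to choose.

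The members varied among themselves. The 106 members that were also villus-top cells and the other 144 had Lct at 56.3 and 57.5 per 10000 and Cubn at 9.12 and 11.5. Among the genes of the lists and named genes with at least 50 UMIs in members, and beyond those that defined the villus-top group, protease genes had the largest ratios toward the 106: Ctsl was at 13.7 in those 106 cells and 0.908 in the other 144, and Lgmn (legumain, which matures cathepsins) at 3.72 and 0.584. Fcgrt was at 115.5 and 41.2, Dab2 at 5.85 and 2.79, Apoa4 at 908 and 361 and Apoc3 at 98.1 and 31.4. In the other direction, all 134 Sis UMIs were in the 144 cells (4.35 per 10000), with 0 in the 106. Mgam was at 1.13 in the 106 and 6.68 in the 144, Anpep at 0.318 and 3.70, Reg3b at 5.76 and 19.3 and Pigr at 3.04 and 8.40. These values describe cells sorted by 3 of their own genes. The 106 cells had a median of 1576 UMIs and the 144 a median of 1818.5.

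**Figure D4:**
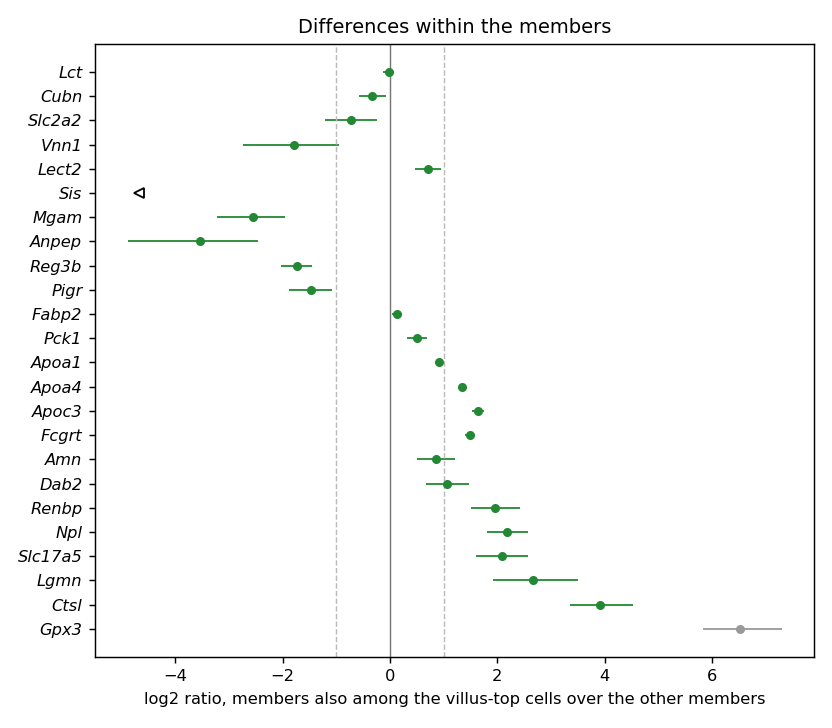
Log2 ratio of the level in the 106 members that were also villus-top cells over that in the other 144 members, with conditional exact 95% intervals for counting error; the open triangle at Sis is the upper bound with 0 UMIs in the 106 cells, and Gpx3 (grey) helped to define the villus-top group. Lct lies near 0, Mgam, Anpep and Reg3b lie to the left of -1, and Fcgrt, Npl, Lgmn and Ctsl lie to the right of 1.

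Levels are also given along the score that chose the members, as a description within the range that the rule kept. Over the 83 members with the lowest scores, the next 83 and the 84 with the highest, Fcgrt was at 63.3, 77.3 and 75.8 per 10000, Pck1 at 16.0, 18.7 and 18.5 and Prdm1 at 0.917, 0.752 and 1.25. Sis was at 3.67, 2.42 and 1.49, Gpx3 at 29.0, 19.3 and 15.7 and Anpep at 3.15, 2.63 and 1.01. Across the 250 members, which share their libraries and whose values share a denominator, Spearman's rho was 0.80 for Fcgrt with Apoa4, 0.67 for Fcgrt with Gpx3 and -0.34 for Sis with Fcgrt. Over all 1961 cells thinned to 900 UMIs, 204 of 628 cells with an Lct UMI had a Cubn UMI (32.5%) against 17 of 1333 without (1.28%). Sis was seen in 10 of 221 cells with a Cubn UMI (4.52%) and in 158 of 1740 without (9.08%), but in 90 of 628 cells with an Lct UMI (14.3%) and 78 of 1333 without (5.85%).

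The genotypes were then compared within the members, with 124 WT and 126 ROBO cells. Of 2028 genes with at least 50 UMIs, 0.296% were at least 2-fold higher in ROBO and 0.493% lower, which is 6 and 10 genes, and the median log2 ratio was -0.03. The 8 genes of the score, whose sum the rule fixed in both genotypes, were all within 2-fold (median -0.06). Lct was at 58.6 in WT members and 55.4 in ROBO members, a log2 ratio of -0.08 (interval -0.19 to 0.02), Cubn at 10.9 and 10.1, Lect2 at 10.4 and 11.7, Mep1b at 6.70 and 5.85, Slc7a15 at 3.20 and 3.76, Slc2a2 at 3.43 and 3.19, Vnn1 at 1.36 and 1.75 and Mgat4c at 1.09 and 1.06. Intervals of all 8 ratios included 0. The share of members that were also villus-top cells was 52 of 124 in WT (41.9%) and 54 of 126 in ROBO (42.9%), a difference of 0.922 points (-11.2 to 12.97).

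Several lists of the enterocyte had 0 genes past 2-fold between genotypes, counted with the score's genes among them: fat absorption (18 genes, median 0.10), fatty acid oxidation (16, -0.05), transporters (10, 0.10), microvillus (10, 0.14), protein uptake (5, 0.08), gluconeogenesis (6, 0.07) and the arginine and urea cycle (6, -0.13). Sis was at 2.71 in WT and 2.36 in ROBO, with a log2 interval of -0.72 to 0.31. For Apoa1 the levels of 222 and 280 gave a log2 ratio of 0.34 (interval 0.29 to 0.39) toward ROBO, a difference larger than counting error whose spread between mice is unknown.

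Among the 10 genes with the largest ratios toward ROBO, Ctsl and Lgmn had most of their UMIs in the 106 members shared with the villus-top cells (302 of 330 and 82 of 100), and so did Mfi2 (415 of 415) and Gpx3 (1111 of 1128), which helped to define that group. Ctsl was at 3.69 in WT members and 8.81 in ROBO members, a log2 ratio of 1.26 (interval 0.91 to 1.61), but 1 ROBO cell held 78 of the 232 ROBO UMIs, and without that cell the ratio was 0.66. Lgmn was at 1.36 and 2.43 (0.84, 0.23 to 1.47). Mfi2, a transferrin-like iron-binding protein of the cell surface, was at 5.72 and 9.99 (0.80). Gpx3, a secreted glutathione peroxidase, was at 16.1 and 26.6 (0.72), yet found in 58 WT and 56 ROBO members, and its ratio was -0.011 after thinning to 900 UMIs and 0.14 with each cell given the same weight. Rab11a (recycling endosomes), Nudt4, Smim22, Tmem253, Coro2a and Apol10a had ratios of 0.64 to 0.82. Within the lysosome list 1 of 18 genes was at least 2-fold higher and 0 lower (median 0.14), and of the villus-top genes 0 of 4 were past 2-fold (median 0.60).

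Antimicrobial lectins were higher in WT members. Reg3b was at 19.6 in WT members and 7.60 in ROBO members, a log2 ratio of -1.37 (interval -1.61 to -1.13), and Reg3g at 3.62 and 1.60 (-1.18). Reg3b UMIs were found in 46 WT and 39 ROBO members, at most 59 and 37 per cell, and the ratio was -1.20 without the cell with most UMIs. The direction held both in members that were also villus-top cells (8.28 in WT, 3.61 in ROBO) and in the others (26.6 and 10.9). Reg3b and Reg3g are close paralogs, so some of their reads may have been assigned to the wrong copy. After thinning to 900 UMIs per cell, 33.1% of WT members (24.9% to 42.1%) and 25.4% of ROBO members (18.1% to 33.9%) had Reg3b. These intervals overlapped. By RNA FISH the study reports the opposite direction in tissue, an expansion of Reg3b-expressing cells in ROBO small intestine. That staining was not limited to these members, and the reason for the contrast was not tested. Anpep was at 3.20 and 1.37 (-1.23), with 24 of its 85 WT UMIs in 1 cell, and Klf6, an early-response transcription factor, at 3.09 and 1.52 (-1.02), with 24 of 82 in 1 cell. Without the cell with most UMIs of the gene Anpep was at -0.75 and Klf6 at -0.52. Tm4sf20, Cmip, Atf3, Setd8, Hnrnpk and Phb2 had ratios of -0.86 to -0.69. In the villus-bottom list 2 of 5 genes, Reg3b and Reg3g, were lower in ROBO and 0 higher (median -0.15), and in the brush-border list 1 of 10, Anpep, was lower and 0 higher (median -0.13). Of the immediate-early genes 0 of 7 were past 2-fold, and their median was 0.05.

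**Figure D5:**
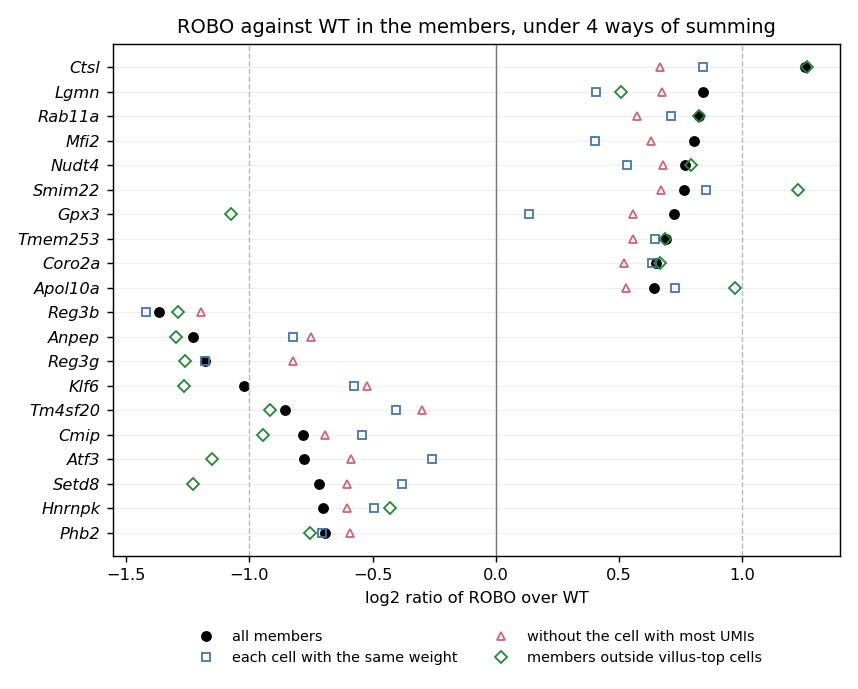
Log2 ratio of ROBO over WT in the members for the 10 genes with the largest ratio in each direction (at least 100 UMIs), over all members, with each cell given the same weight, without the 1 cell holding most UMIs of the gene, and over the 144 members outside the villus-top cells. Reg3b stays at or below -1.20 in all 4, Gpx3 runs from 0.72 to -1.08, and Ctsl runs from 1.26 down to 0.66. The Gpx3 value of -1.08 rests on 17 UMIs in cells set apart partly by Gpx3 itself.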

How the data were processed

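Single cells of WT and ROBO small-intestinal crypt isolates were captured on a droplet instrument (ddSEQ, 2 cartridges per genotype) with a 3′ kit with UMIs. The authors built gene matrices in BaseSpace Sequence Hub and deposited them as UMI counts, not normalized, in 1 matrix of 24421 genes by cells for each genotype. The submitters' processing notes name mm10 and GRCm38; the aligner, annotation, strand setting and cell calling are not given in the sources used here.

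Here UMIs were summed over sets of cells, scaled to 10000, and compared as ratios with conditional exact intervals; levels have exact Poisson, shares exact Clopper-Pearson and differences of shares Newcombe intervals (scipy 1.17.1, statsmodels 0.14.6, Python 3.11.15). A gene passed with at least 50 UMIs over both sets, the score's and the compared group's own genes left out. Past the fold means at least 2-fold. Depth limited precision: 905 to 13756 UMIs per member. Immune cells had at least 5 UMIs of the immune markers and were not members. The genes named are those of 29 lists, the 15 genes highest over other cells, and the 10 per direction between genotypes and 5 per direction for each compared group, with at least 100 UMIs (in members, or over both sets). Members and lists were chosen with earlier results of these data known. Gpat3 and the red blood cell genes Hbb-bs, Hbb-bt, Hba-a1 and Hba-a2 were not matched and are not used here. Doublets, called with Scrublet in scanpy 1.11.5, numbered 2 WT and 4 ROBO cells, 1 of them a member, and were kept except in an alternative. On simulated counts for the genotype comparison (2028 genes, 200 changed), 96.6% of intervals held the true ratio. Those counts were drawn from the Poisson model that the intervals assume, with no spread between cells. They check the calculation and cannot show how the intervals hold in these data. Positions came from GENCODE M21 (283 of 286 named genes) and promoters from RefSeq.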

Additional observations from a re-analysis of the deposited data

How the results depend on the processing

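No paired analysis was possible because cell names carry no library or replicate number; for the same reason no library could be left out. The difference in member share between genotypes ran from -0.213 (150 highest cells) to 2.51 percentage points (at least 1500 UMIs per cell), and its interval included 0 in each of the 8 alternatives. Members chosen under other rules held 62.4% to 99.6% of the 250 members where 250 cells were taken. The count past 2-fold against other cells ran from 3238 to 4366, against 3493. Between genotypes the 16 genes became 28 with at least 1500 UMIs per cell, 29 with the 400 highest cells, 26 with each cell given the same weight, 104 after thinning to 900 UMIs and 1877 with no minimum of UMIs per gene. With no minimum, the 770, 318 and 1776 genes against weaning-type, villus-top and villus-bottom cells became 3195, 2638 and 4739, and the villus-top count was 606 against the 150 highest villus-top cells. In the genotype comparison of named genes, 1122 values stayed within the counting interval, 57 left it and 10 turned over: Oat 0.031 (at least 500 UMIs), Fabp2 -0.022 (without the cell with most UMIs), Apoa4 -0.040 and -0.022, Apoc3 -0.0035 and -0.062 and Fos 0.059 and 0.029 (each with equal cell weights and after thinning), and Gpx3 -0.011 (thinned) and -1.08 (the members outside the villus-top cells, chosen after seeing the data). The members outside the villus-top cells held 17 Gpx3 UMIs and were set apart partly by that gene. Against other cells 983 values stayed within the interval and 245 left it, with 0 turned over. The causes of these shifts were not tested.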

Other observations

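Genes that handle sialic acid, a sugar of milk oligosaccharides and glycoproteins, were among the members' leading genes. This list was put together after the values were seen, so its counts describe these cells and test nothing. Of 15 genes 14 passed against other cells, 8 at least 2-fold higher and 2 lower, with a median log2 ratio of 1.64, and their sum was 36.9 per 10000 UMIs against 11.4. The higher genes were those of release and breakdown. Neu1, the lysosomal neuraminidase, was at 5.20 in WT members and 5.66 in ROBO members, against 1.07 in other cells. Its partner Ctsa was at 7.42 and 10.6, against 2.34. Slc17a5, which exports free sialic acid from the lysosome, was at 3.88 and 3.72, against 0.423. Npl, the lyase that splits sialic acid, was at 6.10 and 5.97, against 0.551, and Renbp, which turns over N-acetylmannosamine, at 3.50 and 4.64, against 0.392. Amdhd2 and Gnpda1, later steps toward fructose 6-phosphate, were at 1.91 against 0.481 and 0.719 against 0.186. Genes of synthesis and use were lower or near the other cells: Gne was at 0.265 against 0.593, Slc35a1, the Golgi carrier, at 0.170 against 0.498, Nans at 0.851 against 1.31 and Cmas at 1.42 against 1.82. Against the weaning-type cells, 8 of the 11 genes that passed were higher and 0 lower. Npl and Renbp had 1 UMI each in those cells, and Slc17a5 was at 0.0465. Against the villus-top cells 1 of 10 was past 2-fold.

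Other leading genes of the members belong to none of these lists. Sepp1, the plasma selenium carrier, was at 31.7 in WT members and 39.6 in ROBO members, against 4.08 in other cells, and Gda, guanine deaminase, at 10.2 and 9.84, against 0.946. Smcp, named for the sperm mitochondrial sheath, was at 1.77 and 2.20, against 0.198, and Ifit1bl2 at 2.64 and 2.89, against 0.343.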
